A study of Mus musculus with 6 samples.

Results

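Clustered protocadherins are cadherin-like surface proteins encoded by 3 neighbouring gene clusters, alpha, beta and gamma. Members were taken by gene symbol from the deposited count table, without regard to their values: 56 of 37411 rows, of which 13 belong to the alpha, 22 to the beta and 21 to the gamma cluster. The table holds RNA-seq counts from 6 libraries of hippocampal neurons of CD-1 IGS mice, cultured from P0 pups and taken at day 16 in vitro (DIV 16). Libraries 1 to 3 received the solvent DMSO and libraries 4 to 6 received 50 µM forskolin, an activator of adenylyl cyclase that raises cellular cAMP, each for 30 minutes. No genetic change is named in the labels for either group, and the labels do not say whether the libraries of a group came from separate cultures, so p-values measure the spread between these libraries, which may be technical.

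A neuron switches on only some of the many clustered promoters, and the resulting set of protocadherins is displayed as homophilic recognition units on its surface. The proteins are best known for self-avoidance of neurites, for dendrite and axon patterning and for neuron survival. In the alpha and gamma clusters each variable exon has its own promoter and is spliced to constant exons shared by the whole cluster, whereas a beta gene carries its coding sequence in 1 exon. The most downstream variable exons of the alpha and gamma clusters, the C-type genes, are used more uniformly from neuron to neuron than the others.

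In GENCODE M21 (mouse GRCm38, the build named in the submitters' processing notes) all 56 members lie on the plus strand of chromosome 18. The alpha members span chr18:36930184-37187661, the beta members chr18:37264938-37524479 and the gamma members chr18:37661793-37841873. The longest coding transcript of every alpha and gamma member has 4 exons, and that of every beta member has 1. Exonic bases shared with other members made up 48.6 to 54.9% of the transcript in the alpha cluster and 13.4 to 45.5% in the gamma cluster. In the beta cluster the share was 0 to 9.67%, the highest values coming from Pcdhb21 and Pcdhb22, which overlap each other. How reads from shared exons were divided among members is not given in the sources used here, so members of the alpha and of the gamma cluster are not independent measurements. Median GC content of the transcripts was 47.3% in the alpha, 46.0% in the beta and 53.0% in the gamma cluster, beside 49.5% over all genes tested. Pcdhgb8 is annotated as a polymorphic pseudogene, and the symbol Pcdha11 covers 2 gene identifiers.

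Library totals ran from 28342764 to 47548379 counts, and the members together received 18346 to 23927 counts per library, or 0.0499 to 0.0650% of the total. All 12 neuron markers were detected in every library. Forskolin libraries 4 and 5 stood apart from the other 4. Their 12 microglia markers summed to 221 and 373 CPM (counts per 1000000 of the TMM-adjusted library size), beside 34.7, 24.5 and 23.0 in DMSO libraries 1 to 3 and 24.6 in forskolin library 6. Neuron markers summed to 3059 and 3307 CPM in libraries 4 and 5, beside 3976, 4710 and 5190 under DMSO and 4935 in library 6. Of these 12 genes, 9 had a fitted log2 fold change of forskolin over DMSO below 0, and 3 (Map2, Gad2 and Nefl) lay above 0. Mitochondrial ribosomal RNA took 14.0 to 23.7% of counts under DMSO and 26.9 to 33.3% under forskolin. Calls, cluster values and the fold changes of several members are also given without library 6, the forskolin library that resembled the DMSO libraries in these markers; without it, both remaining forskolin libraries are the ones with raised microglia markers.

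Levels differed widely within each cluster, and in the alpha cluster 1 gene carried most of the signal. Levels are compared between genes as CPM per kilobase of exonic length, averaged over the 6 libraries. In the alpha cluster Pcdhac2, a C-type gene known for the spacing of serotonergic axons, reached 4.14, followed by Pcdha3 at 0.561 and Pcdha12 at 0.451. The lowest detected alpha member was Pcdha8 at 0.0568, so the detected alpha genes covered a 73.0-fold range. Of the cluster's summed CPM per kilobase, the 3 leading alpha genes held 67.0 to 71.8% in each library, and Pcdhac2 alone held 52.6 to 59.2%. Its level per kilobase was 4.82 ± 0.613 under DMSO and 3.46 ± 1.13 under forskolin (SD, n = 3).

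The beta cluster was more even. Pcdhb9 led at 5.27 CPM per kilobase, ahead of Pcdhb22 at 3.07 and Pcdhb10 at 2.99, and Pcdhb12 was lowest at 0.257, a 20.4-fold range. The antisense gene Gm37446 overlaps 1927 of the 3034 exonic bases of Pcdhb12, so its place as the lowest is uncertain. The leading 3 held 27.4 to 32.2% of the beta sum on this scale. The order below Pcdhb9 differed by group, within wide spread. Under DMSO Pcdhb10 stood at 3.27 ± 0.496 and Pcdhb22 at 2.85 ± 0.285 (SD, n = 3). Under forskolin Pcdhb22 stood at 3.29 ± 0.496, Pcdhb18 at 2.94 ± 0.521, Pcdhb7 at 2.89 ± 0.800 and Pcdhb10 at 2.71 ± 0.435. Levels reached 1 CPM per kilobase in 16 of 22 beta members, 18 of 20 detected gamma members and 1 of 12 detected alpha members. Exons shared within the alpha and gamma clusters count in this length, so the contrast between clusters depends on the scale.

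The gamma cluster held the highest levels of all. Pcdhgc3, a C-type gene linked to dendrite arborization, stood at 14.1 CPM per kilobase, Pcdhga8 at 8.59 and Pcdhgc5, a C-type gene, at 7.84. On this scale Pcdhga8 and Pcdhgc5 were not separated by their spread: under DMSO Pcdhga8 stood at 8.98 ± 0.726 and Pcdhgc5 at 8.72 ± 1.83 CPM per kilobase (SD, n = 3). The lowest detected gamma member was Pcdhgb8 at 0.549. The leading 3 held 43.7 to 50.8% of the gamma sum on this scale. In each cluster the same 3 genes led when levels were taken per kilobase of exonic sequence that no other annotated gene covers.

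**Figure D1:**
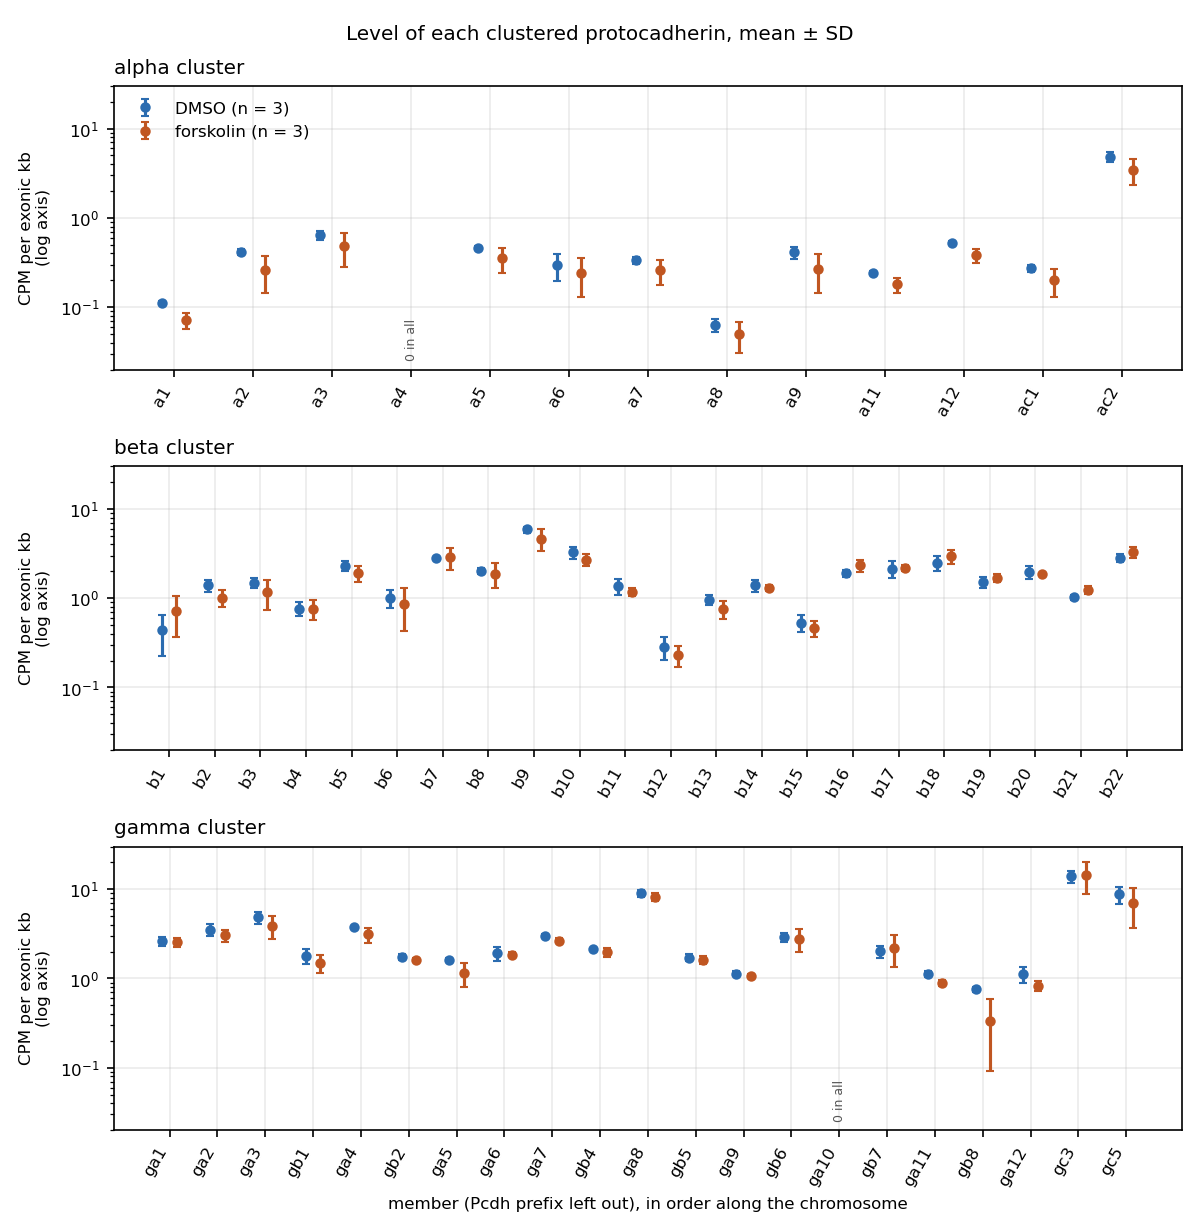
Level of each member (CPM per kilobase of exonic length, log axis) in order along the chromosome, by cluster; points are means and bars SDs of 3 DMSO (blue) and 3 forskolin (orange) libraries. Pcdhac2 stands alone at 4.14 in the alpha cluster, while most beta and gamma members lie at 1 or above; Pcdha4 and Pcdhga10 are listed at 0.

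Pcdha4 and Pcdhga10 had 0 counts in all 6 libraries, while the members next to them were detected. These 2 genes had the least exonic sequence free of other annotated genes: 404 bases in Pcdha4, whose variable exon overlaps Gm42416 and the antisense gene Gm38225, and 0 bases in Pcdhga10, which the antisense gene Gm26672 overlaps. The next lowest were Pcdhb12 with 1107 and Pcdhga11 with 1256 free bases. Over the whole table, 84 of 103 protein-coding genes with no free base (81.6%) were listed at 0 in all libraries, and so were 265 of 523 genes with 1 to 500 free bases (50.7%), the range that holds Pcdha4, beside 16.0% of the 20378 genes with more than 500 free bases. Among the 103, 41 had free bases when only their own strand was counted, and 28 of those (68.3%) were listed at 0. A listed 0 for Pcdha4 or Pcdhga10 therefore cannot be read as absence of the transcript. The exons of Pcdhgc3 overlap the antisense gene BC037039, and the strand setting of the counting is not given in the sources used here, so the value of Pcdhgc3 may hold reads of both. Antisense genes also overlap exons of Pcdha6, Pcdha11, Pcdha12, Pcdhb12, Pcdhga1, Pcdhga7, Pcdhga8, Pcdhga11, Pcdhga12 and Pcdhgb7. The strand setting limits the values of these members in the same way.

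The comparison of forskolin with DMSO asked whether any member changed within 30 minutes. By edgeR's quasi-likelihood test with Benjamini-Hochberg adjustment over 16233 genes, at a threshold of 0.05, 0 of 54 tested members passed, beside 1.51% of all genes tested (0.172% higher and 1.34% lower). None of the 54 had an unadjusted p under 0.05 either, beside 22.3% of all genes, and 0 members were called by DESeq2 (10.9% of all genes) or by limma-voom (1.34% of all genes). The smallest adjusted p among the members was 0.224, for Pcdhgb8. The authors' deposited table, part of a longer ranking, holds 132 genes, beside 37411 rows of counts. None of the 132 is a clustered protocadherin.

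The fitted log2 fold changes of the members lay mostly below 0. The median was -0.25 over the 54 tested members and 0.02 over all genes tested, and 44 of 54 members lay below 0, beside 48.2% of all genes. By cluster the median was -0.44 for alpha (12 of 12 below 0, from -0.68 to -0.27), -0.11 for beta (14 of 22 below 0) and -0.17 for gamma (18 of 20 below 0). Because alpha members share exons, and gamma members likewise, these counts do not stand for independent genes. A difference between the clusters was not tested.

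The per-library values show where the alpha median comes from. Relative to the DMSO mean, the median log2 ratio of the alpha members reached -0.87 and -0.66 in libraries 4 and 5 and -0.01 in library 6, beside 0.01, -0.08 and 0.08 in the DMSO libraries. For beta the forskolin medians were -0.36, -0.08 and 0.01, and for gamma -0.25, -0.18 and -0.05. Libraries 4 and 5 both lay below every DMSO library for 10 of 12 alpha, 7 of 22 beta and 10 of 20 gamma members, beside 32.5% of all genes tested. Both lay above every DMSO library for 0 alpha, 5 beta and 2 gamma members, beside 30.2% of all genes. Library 6 lay inside the DMSO range for 8 alpha, 16 beta and 10 gamma members, beside 35.2% of all genes tested.

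**Figure D2:**
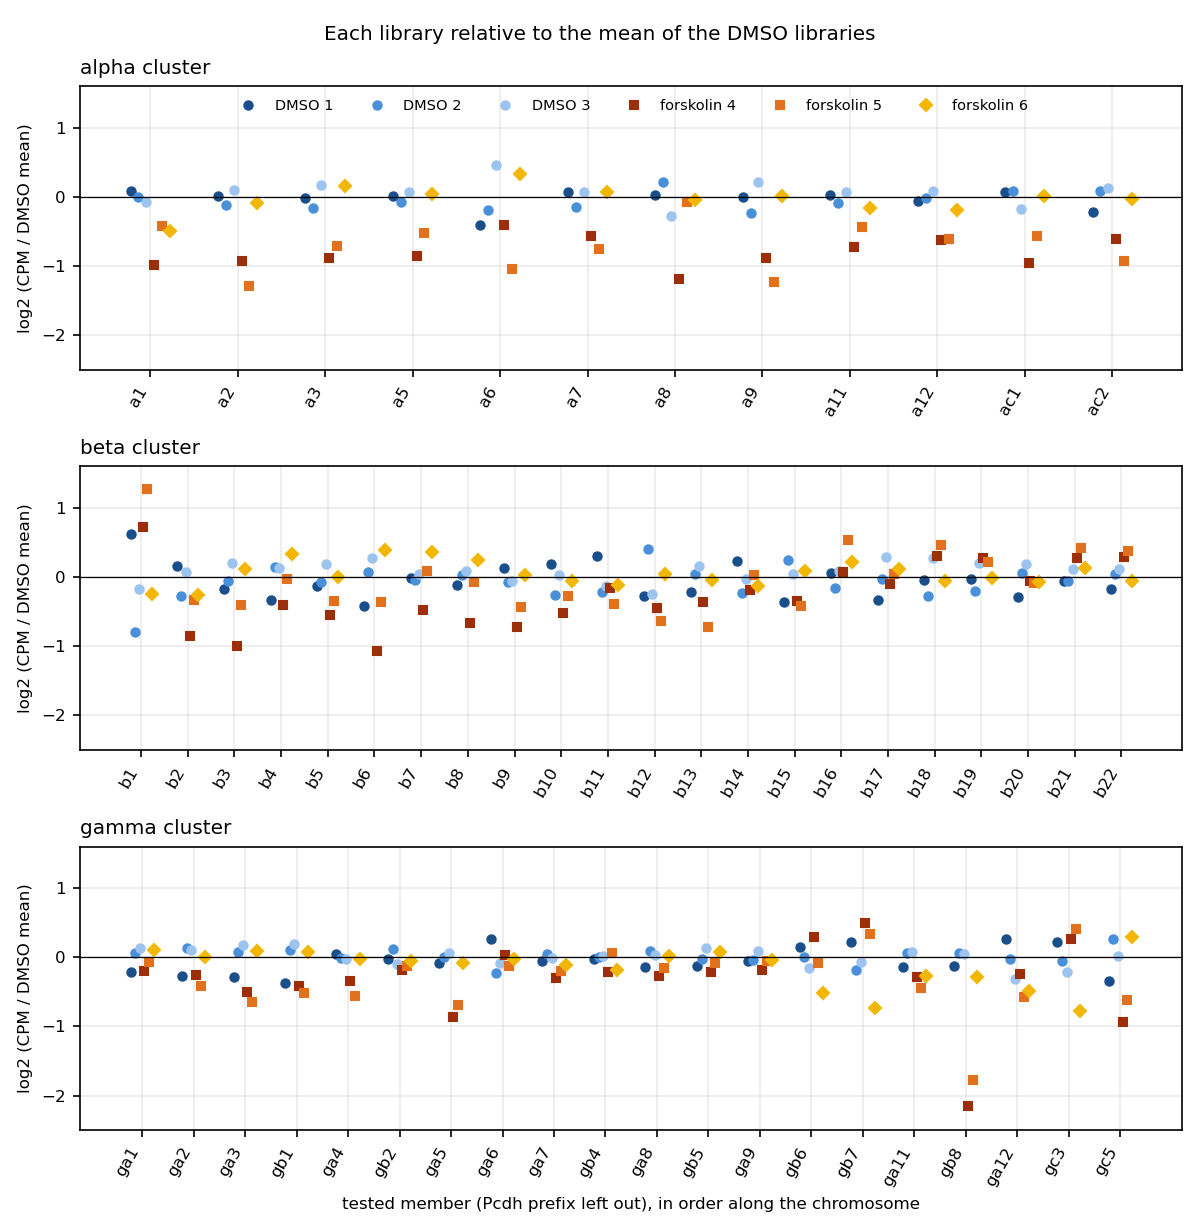
log2 of each library's CPM over the DMSO mean for the 54 tested members, in order along the chromosome; circles are DMSO, squares forskolin libraries 4 and 5, diamonds forskolin library 6. In the alpha cluster the squares lie below all circles for 10 of 12 members, while the diamonds lie within the circles' range for 8.

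Summed over a cluster, alpha came to 45.2, 49.9 and 53.8 CPM under DMSO and to 31.0, 27.6 and 49.0 CPM under forskolin. Libraries 4 and 5 were the lowest of the 6, and library 6 fell among the DMSO values, so the groups overlapped (49.6 ± 4.33 against 35.9 ± 11.5 CPM, SD, n = 3, a log2 ratio of -0.47, or -0.76 without library 6). The beta total was 165, 158 and 181 CPM under DMSO and 150, 173 and 173 under forskolin; these overlapped, with a log2 ratio of -0.02, or -0.06 without library 6. The gamma total was 365, 394 and 374 CPM under DMSO and 327, 341 and 349 under forskolin. All 3 forskolin values lay below all 3 DMSO values, with means of 378 ± 15.1 and 339 ± 11.1 CPM (SD, n = 3) and a log2 ratio of -0.15, or -0.18 without library 6. Without the C-type genes the gamma groups overlapped, at 223, 240 and 240 CPM under DMSO and 201, 197 and 224 under forskolin. These sums carry no test.

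**Figure D3:**
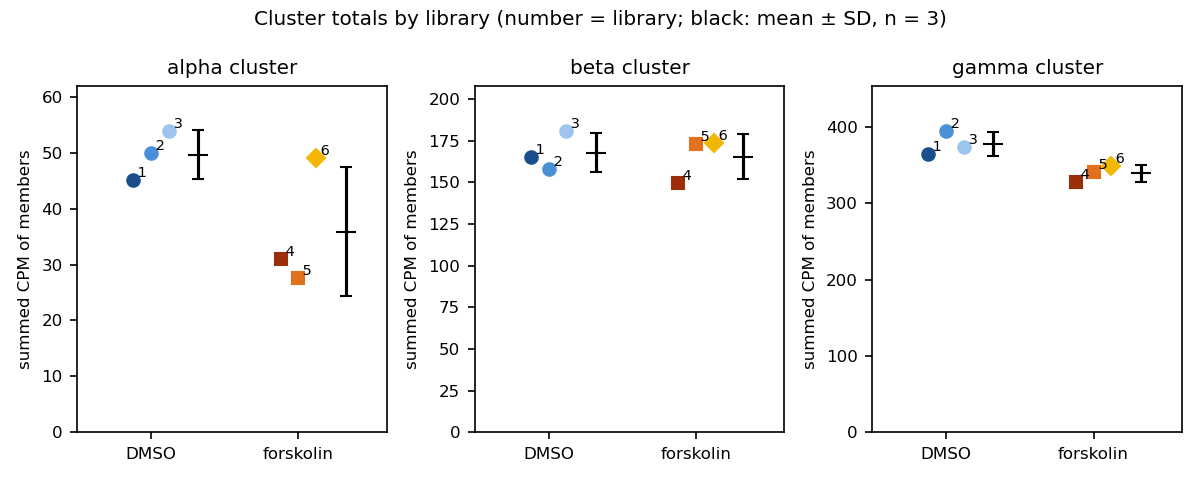
Summed CPM of the members of each cluster, by library (points, numbered 1 to 6), with the mean and SD of 3 libraries in black; each axis starts at 0. Alpha totals of 31.0 and 27.6 in libraries 4 and 5 stand below the rest, beta totals overlap, and gamma totals under forskolin (327 to 349) lie below those under DMSO (365 to 394).

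The alpha total moved with the neuron markers across libraries. Per 1000 CPM of neuron markers it was 11.4, 10.6 and 10.4 under DMSO and 10.1, 8.36 and 9.93 under forskolin, a smaller spread than that of the total itself, though the forskolin values still lay below those under DMSO. The same ratio for beta was 41.5, 33.5 and 34.8 under DMSO and 49.0, 52.3 and 35.1 under forskolin. For gamma it was 91.8, 83.7 and 72.0 under DMSO and 107, 103 and 70.8 under forskolin. In libraries 4 and 5 the beta and gamma ratios thus exceeded every DMSO value, and in library 6 they did not. The neuron markers did not all move the same way, and Map2, Slc17a7 and Syt1 weigh most in their sum, so these ratios depend on the markers chosen. In these bulk libraries fewer neurons and less RNA per neuron cannot be told apart, and the part of cell makeup in the cluster values was not tested.

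**Figure D4:**
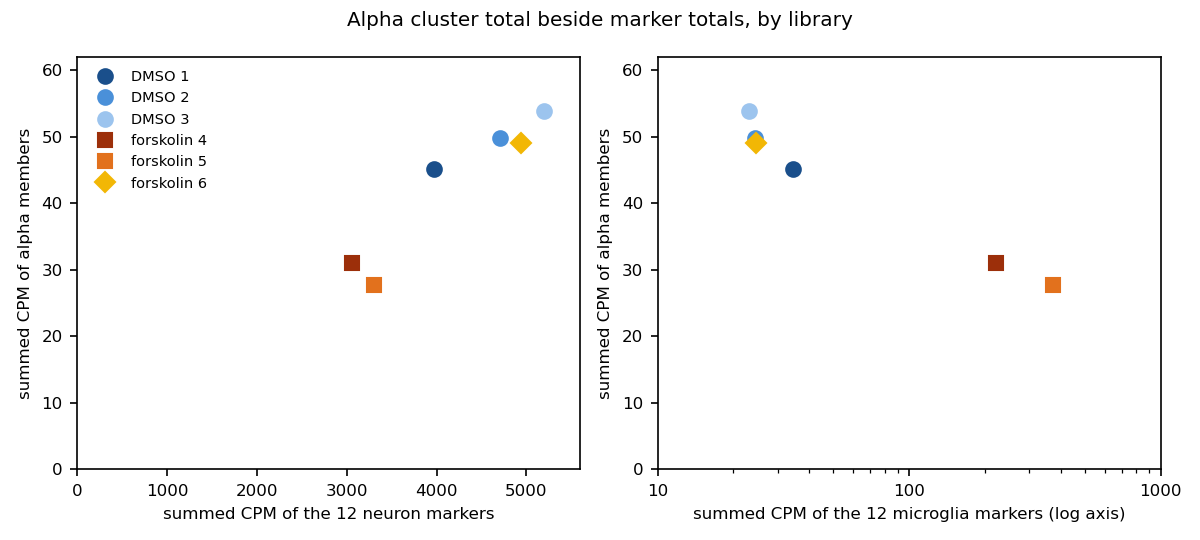
Alpha total (CPM) in each library against the summed CPM of 12 neuron markers (left) and of 12 microglia markers (right, log axis); blue circles are DMSO, squares and the diamond forskolin. Libraries 4 and 5 have the lowest alpha totals, the lowest neuron marker sums (3059 and 3307) and the highest microglia marker sums (221 and 373).

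Among the alpha genes, Pcdhac2 stood at 24.3, 30.1 and 30.9 CPM under DMSO and 18.6, 14.8 and 27.7 CPM under forskolin. Libraries 4 and 5 were below all DMSO libraries and library 6 was among them. Its log2 fold change was -0.48 ± 0.24 (SE), with an adjusted p of 0.288 by edgeR's quasi-likelihood test. Pcdhac1, the other C-type alpha gene, was far lower, at 1.56, 1.57 and 1.32 CPM against 0.765, 0.999 and 1.49, or -0.46 ± 0.32 on the log2 scale (edgeR adjusted p = 0.423). Without library 6 the log2 fold change of Pcdhac1 was -0.77.

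The variable alpha genes all had lower counts than Pcdhac2. Pcdha2 had the most negative fold change of the cluster: 2.25, 2.03 and 2.38 CPM under DMSO and 1.17, 0.911 and 2.09 under forskolin (log2 fold change -0.68 ± 0.35, edgeR adjusted p = 0.297); without library 6 it was -1.11. Pcdha3 stood at 3.34, 3.05 and 3.82 CPM against 1.85, 2.09 and 3.79. In both genes library 6 was among the DMSO values and libraries 4 and 5 were well under them.

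In Pcdha12 and Pcdha1 library 6 was also below every DMSO library. Pcdha12 stood at 2.65, 2.76 and 2.95 CPM under DMSO and 1.81, 1.82 and 2.45 under forskolin, without overlap (log2 fold change -0.46 ± 0.23, edgeR adjusted p = 0.289). Pcdha1, with 14 to 20 counts per library, had the smallest p of the cluster. Its values were 0.625, 0.591 and 0.561 CPM against 0.297, 0.441 and 0.418, also without overlap (-0.62 ± 0.30 on the log2 scale, edgeR adjusted p = 0.275). Pcdha6 had the least negative fold change of the cluster, -0.27 ± 0.42, and its DMSO libraries alone ran from 1.19 to 2.16 CPM; without library 3 it was 0.02 and without library 5 0.03.

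In the beta cluster Pcdhb9 stood at 19.6, 17.1 and 17.2 CPM under DMSO and 10.9, 13.3 and 18.4 under forskolin. Libraries 4 and 5 were below the DMSO range and library 6 inside it (log2 fold change -0.34 ± 0.21, edgeR adjusted p = 0.369); without library 6 it was -0.59. Pcdhb2, the beta gene with the smallest p and the most negative fold change, had 4.40, 3.25 and 4.12 CPM against 2.17, 3.11 and 3.29 (-0.46 ± 0.26, edgeR adjusted p = 0.325). Pcdhb10 ranged from 7.81 to 10.6 CPM under DMSO and from 6.48 to 8.96 under forskolin.

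Some beta genes were higher in libraries 4 and 5. Pcdhb22 stood at 16.7, 19.3 and 20.4 CPM under DMSO and 23.0, 24.3 and 18.1 under forskolin, so libraries 4 and 5 exceeded all DMSO libraries and library 6 did not (log2 fold change 0.21 ± 0.16, edgeR adjusted p = 0.454). Pcdhb1, the gene at the upstream end of the cluster, had the most positive fold change of all members, 0.71 ± 0.50, on 20 to 94 counts per library. Its values were 1.75, 0.656 and 1.01 CPM against 1.87, 2.76 and 0.956, with wide spread inside each group (edgeR adjusted p = 0.428). With 1 library left out the log2 fold change ran from 0.35 without library 5 to 1.17 without library 1.

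Fold changes in the beta cluster went with position along it. The first 15 genes, Pcdhb1 to Pcdhb15, had a median log2 fold change of -0.23 (13 below 0 and 2 above), and the last 7, Pcdhb16 to Pcdhb22, had a median of 0.21 (1 below and 6 above); without library 6 the medians were -0.41 and 0.30. This division was chosen after the values were seen and carries no test. The rank correlation of fold change with order was 0.46 over the 22 genes, and with GC content it was -0.51. The correlation with GC content was also -0.51 over 15769 genes of the whole table, and after correction of every library for its GC trend the medians were -0.34 and -0.06. These points share libraries, and no p is given for them.

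The gamma cluster held the member with the most negative fold change of all. Pcdhgb8 stood at 3.22, 3.68 and 3.62 CPM under DMSO and 0.786, 1.03 and 2.87 CPM under forskolin, with no overlap between the groups. Libraries 4 and 5 were lowest by a wide margin, and library 6 was nearer to the DMSO libraries than to them. The log2 fold change was -1.17 ± 0.49, with an edgeR adjusted p of 0.224. Its share of the gamma sum of CPM per kilobase was 1.03 to 1.14% under DMSO and 0.278, 0.353 and 0.982% in libraries 4, 5 and 6.

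The C-type gamma genes Pcdhgc3 and Pcdhgc5 ran in opposite directions between libraries. Pcdhgc3 stood at 89.1, 73.8 and 66.1 CPM under DMSO and 91.9, 101 and 44.6 under forskolin, highest in libraries 4 and 5 and lowest in library 6 (log2 fold change 0.05 ± 0.30, edgeR adjusted p = 0.929). The sign of this value turned under 5 other settings, among them scaling by library size alone (-0.07) and limma-voom (-0.03). Pcdhgc5 stood at 52.3, 80.2 and 67.2 CPM under DMSO and 34.9, 43.2 and 81.1 under forskolin, lowest in libraries 4 and 5 and highest in library 6 (-0.33 ± 0.33, edgeR adjusted p = 0.575). The ratio of Pcdhgc3 to Pcdhgc5 was accordingly 1.70, 0.920 and 0.984 under DMSO and 2.64, 2.34 and 0.550 under forskolin, so the forskolin libraries lay on both sides of the DMSO range.

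The gamma gene with the narrowest error was Pcdhga8. It stood at 38.7, 45.4 and 43.4 CPM under DMSO and 35.1, 38.1 and 43.1 under forskolin (log2 fold change -0.13 ± 0.12, edgeR adjusted p = 0.538). Its SE was the smallest of the 54, and without library 6 its log2 fold change was -0.23. Pcdhgb7 had the most positive gamma fold change, 0.13 ± 0.33, with 8.33 to 11.1 CPM under DMSO against 13.4, 11.99 and 5.70 under forskolin. Like Pcdhgc3 it was highest in libraries 4 and 5 and lowest in library 6, and without library 4 its log2 fold change was -0.10. The 11 tested gamma A genes had fitted changes from -0.51 to -0.04 with a median of -0.21, and 6 of the 7 gamma B genes also lay below 0. After correction for the GC trend the gamma A median was -0.08, and 5 of the 7 gamma B genes lay above 0. Without library 6 the gamma A median was -0.35.

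Values of DMSO and forskolin did not overlap for 8 of 54 members, beside 26.5% of all genes tested. Pcdhb21 was the member that was higher, beside 10.3% of all genes (4.59, 4.59 and 5.19 CPM against 5.82, 6.41 and 5.23). The 7 that were lower were Pcdha1, Pcdha11, Pcdha12, Pcdhga5, Pcdhga7, Pcdhga11 and Pcdhgb8, beside 16.2% of all genes. Pcdhb21, Pcdha11, Pcdhga5, Pcdhga7 and Pcdhga11 are named here after their values were seen.

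With library 6 left out, 10 of 54 members passed the edgeR threshold, all lower, beside 33.6% of all genes, 16.5% higher and 17.1% lower. They were Pcdha2, Pcdha3, Pcdha9, Pcdhac2, Pcdhb9, Pcdhga3, Pcdhga4, Pcdhga5, Pcdhgb8 and Pcdhgc5, so 4 of 12 alpha, 1 of 22 beta and 5 of 20 gamma genes. The members' share of calls was thus below that of all genes, and the share called lower was near it. Pcdhgb8 was then at -1.97 ± 0.25 on the log2 scale (edgeR adjusted p = 0.00416), Pcdhac2 at -0.78 ± 0.16 (edgeR adjusted p = 0.0150) and Pcdhgc5 at -0.79 ± 0.20 (edgeR adjusted p = 0.0264). The median was -0.40 over the 54 members, beside 0.01 over all genes tested. The cluster medians were -0.71 for alpha, -0.26 for beta and -0.25 for gamma. Leaving out any other library gave 0 calls among the members and 0 over all genes tested.

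**Figure D5:**
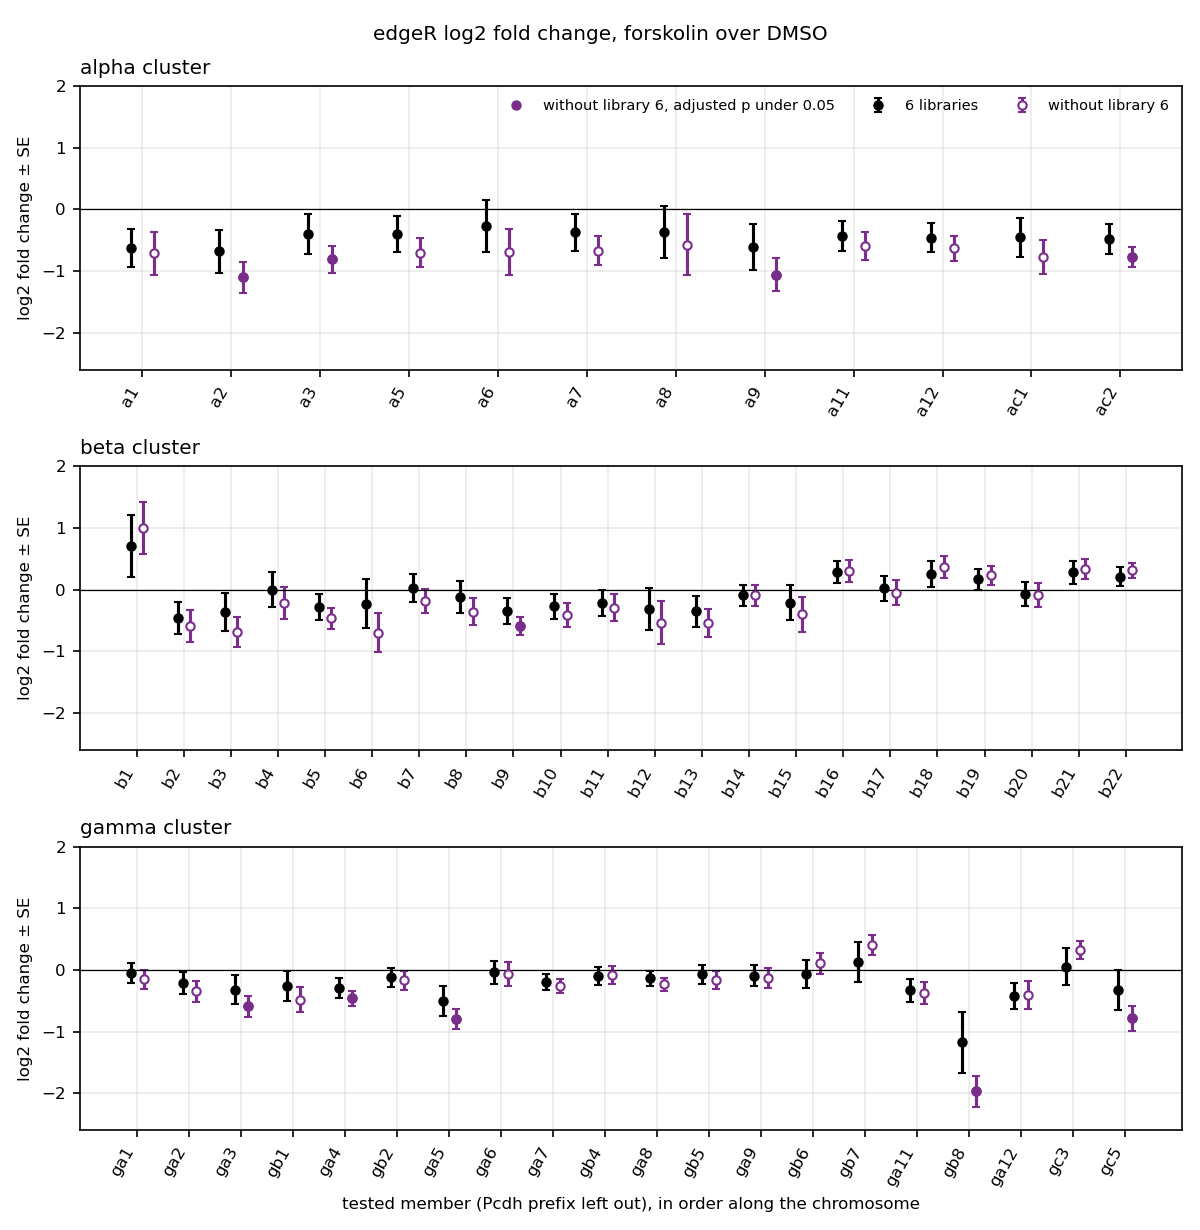
edgeR log2 fold change ± SE of forskolin over DMSO for the 54 tested members, from all 6 libraries (black) and without library 6 (purple; filled where the adjusted p is under 0.05). With 6 libraries none passed the threshold; without library 6 the 10 filled points did, all below 0, and most values moved away from 0.

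Weighting the libraries by quality in limma-voom called 14 members, 13 lower and Pcdhb1 higher, beside 41.9% of all genes (21% higher and 20.9% lower). All 10 genes called without library 6 were among those 14. Removing the GC trend as well as library 6 called 13 members, beside 32% of all genes (16% in each direction): 11 were lower, and Pcdhgc3 and Pcdhgb7 were higher (0.51 and 0.52 on the log2 scale). Of the 10 genes called without library 6, 8 were also called here, and Pcdhga3 and Pcdhgc5 were not. Removing the GC trend from all 6 libraries left no gene called (0%), and moved the gamma median to -0.06 with 9 of 20 above 0 and the beta median to -0.24 with 18 of 22 below 0, while the alpha median was -0.49 with 12 of 12 below 0.

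Genes around the clusters were taken from 3 lists, whose counts are to be read beside 1.51% of all genes tested past the edgeR threshold, 22.3% with an unadjusted p under 0.05 and 10.9% called by DESeq2. Of 12 non-clustered protocadherins, which have separate genes and promoters, 11 were tested and 0 passed the edgeR threshold (2 had an unadjusted p under 0.05, and DESeq2 called 2). Their median log2 fold change was 0.04 with 7 of 11 above 0, but -0.12 with 0 of 11 above 0 after correction for the GC trend, and -0.09 without library 6. Pcdh1 stood at 259, 246 and 245 CPM under DMSO and 156, 158 and 174 CPM under forskolin, low in all 3 forskolin libraries (log2 fold change -0.62 ± 0.11, edgeR adjusted p = 0.0526). Pcdh8, an activity-induced protocadherin also called arcadlin, stood at 151, 158 and 150 CPM against 92.1, 97.8 and 113 (-0.60 ± 0.12, edgeR adjusted p = 0.0674). Correction for the GC trend moved the log2 fold changes to -0.05 for Pcdh1 and -0.12 for Pcdh8.

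Of 22 genes for factors that act at the clustered promoters, such as CTCF, cohesin and its loaders, DNA methylation and silencing enzymes, 0 passed the edgeR threshold (9 had an unadjusted p under 0.05, and DESeq2 called 6). The median was 0.14 with 15 of 22 above 0, and 0.016 with 12 of 22 above 0 after correction for the GC trend. Among the 9 genes with an unadjusted edgeR p under 0.05, Smc3, Stag1, Stag2, Nipbl, Pds5a and Smchd1 were higher and Wiz, Tet3 and Trim28 lower. DESeq2 called 4 higher and 2 lower. The 2 genes with the smallest p were both lower. Wiz, a zinc finger protein found with CTCF and cohesin, stood at 22.2, 25.6 and 23.5 CPM under DMSO and 15.04, 15.5 and 13.6 under forskolin (-0.69 ± 0.13, edgeR adjusted p = 0.0592). Tet3, a 5-methylcytosine dioxygenase, stood at 59.7, 56.7 and 62.3 CPM against 39.1, 39.1 and 44.9 (-0.54 ± 0.11, edgeR adjusted p = 0.0661). In both genes all 3 forskolin libraries lay below all DMSO libraries, and correction for the GC trend moved both log2 fold changes to -0.40.

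Of 24 genes for intracellular partners and proteases of protocadherins (focal adhesion and Src-family kinases, the WAVE complex, ADAM10 and gamma-secretase), 0 passed the edgeR threshold (3 had an unadjusted p under 0.05, and DESeq2 called 1). The median was -0.08, or -0.15 without library 6. Src, a tyrosine kinase, stood at 135, 136 and 122 CPM against 106, 101 and 97.3 (-0.37 ± 0.10, edgeR adjusted p = 0.131). Its value turned to 0.09 once the GC trend was taken out. Wasf1, a WAVE complex subunit, stood at 60.1, 63.3 and 68.4 CPM against 35.0, 34.5 and 56.4 (-0.61 ± 0.21, edgeR adjusted p = 0.170), with library 6 nearest to the DMSO values. Without library 6 the log2 fold changes were -0.68 for Pcdh1, -0.71 for Pcdh8, -0.65 for Wiz, -0.63 for Tet3, -0.36 for Src and -0.90 for Wasf1. In that setting, where 33.6% of all genes were called, the non-clustered protocadherins had 2 called genes, both lower. The promoter factors then had 6 higher and 4 lower, and the partners and proteases 1 higher and 6 lower.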

How the data were processed

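The authors deposited counts per gene symbol, whole numbers with 1 column per library, treated here as estimated counts. Salmon, DESeq and the build GRCm38 are named without role or version, per the submitters' processing notes; the annotation, strand setting and counting rule are not given in the sources used here. A second table, part of a longer ranking, gives the authors' deposited mean normalised signal, log2 fold change with its SE, test score, and p-values; it was used for membership alone.

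Counts were fitted with edgeR 4.0.16 (R 4.3.3; filterByExpr with minimum count 10 and minimum total 15, TMM factors, quasi-likelihood test on group, all 6 libraries), with Benjamini-Hochberg adjustment over 16233 genes. A group has 3 libraries, and the biological coefficient of variation was 0.29. Alternatives were DESeq2 1.42.0, limma 3.58.1 (voom, with and without library weights), other scaling, other filters, removed GC or length trends, and each library left out; levels per kilobase of unshared exon were added after seeing the data. The fitting step was tested on simulated counts. GENCODE M21 matched 36174 rows (96.7%) by symbol.

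Named members are, per cluster, the 3 highest per kilobase, the smallest p, the most positive and most negative fold change, and the C-type genes; per list, the 2 smallest p. Members and lists were chosen with earlier results of these data known. No row of the counts carries the symbol Pcdha10 or Pcdhgc4, so neither gene is among the members, and Pcdhgc4 is missing from the C-type genes. Tested members averaged 10.3 to 2786 counts per library; counting error adds to the spread of the low ones. Member sequences are not printed.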

Additional observations from a re-analysis of the deposited data

How the results depend on the processing

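The number of genes called over the whole table was 245 with all 6 libraries. It was 1775 with DESeq2, 6795 with library quality weights, 137 with RLE size factors, 147 with the length trend removed, 326 under library size alone, 238 of 13470 at a mean count of at least 50, 0 with the GC trend removed (1948 at an unadjusted p under 0.05) and 5417 with the GC trend and library 6 removed. Leaving out 1 library gave 0 to 5698, the highest without library 6 and 0 without any other. Clustered protocadherins called numbered 0 with all libraries, 14 with quality weights, 13 with the GC trend and library 6 removed, and 0 to 10 with 1 library left out. The alpha and gamma medians kept their sign under every setting run. The beta median was -0.11, reached -0.42 with the GC trend and library 6 removed, and was 0.01 without library 4. The gamma median was -0.17, but -0.27 under library size alone, -0.059 with the GC trend removed, and -0.25 to -0.12 with 1 library left out. Leaving out 1 library moved the alpha total's log2 ratio of -0.47 to between -0.76 and -0.31, and the beta total's of -0.02 to between -0.06 and 0.05. The gamma total's log2 ratio was -0.15 and -0.26 under library size alone, a scaling that moved the median of all genes from 0.02 to -0.09.

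Calls in the lists, 0 in each with all libraries, moved as follows, beside the whole-table counts above out of 16233 genes tested, or 16941 without library 6. Non-clustered protocadherins had 2 with DESeq2, 2 with quality weights, 1 at a mean count of at least 50, 4 with the GC trend and library 6 removed, and 0 to 2 with 1 library left out. Promoter regulators had 6, 11 and 7 under DESeq2, quality weights and the GC trend with library 6 removed, 1 under library size alone, and 0 to 10 with 1 library left out. Partners and proteases had 1, 9 and 10 under the first 3 of these, and 0 to 7 with 1 library left out. Of 366 single-gene alternatives, 311 kept direction and side of the threshold, 46 gained a call, 0 lost one and 9 turned sign. Those 9 were in 4 genes: Pcdha6 ranged from -0.697 to 0.0345 with 1 library left out, Pcdhgb7 from -0.10 to 0.40, and Pcdhgc3 from -0.13 to 0.32, with -0.0274 in limma-voom and -0.0694 under library size alone; Src was 0.0861 with the GC trend removed. The cause was not tested.

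No paired analysis was possible because the libraries are numbered 1 to 6 across both groups and share no number. At 3 libraries a group, an SE of 0.12 to 0.50 on the log2 scale, derived from edgeR's F statistic, set the precision of the members' values.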

Other observations

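Marker lists of the other cell types that such cultures can hold were summed by library. Astrocyte markers (10 genes) came to 7868, 7662 and 7146 CPM under DMSO and 7838, 8673 and 7069 under forskolin. Oligodendrocyte lineage markers (12 genes) came to 936, 836 and 868 CPM under DMSO and 1139, 1624 and 652 under forskolin, high in libraries 4 and 5 and lowest in library 6. Vascular and meningeal markers (12 genes) came to 376, 198 and 155 CPM under DMSO and 442, 181 and 136 under forskolin, high in libraries 1 and 4. No marker gene of any list was at 0 in all libraries. By edgeR's quasi-likelihood test 1 of 12 neuron markers, Rbfox3, was called lower, and none of the other marker genes was called, beside 1.51% of all genes tested. DESeq2 called 4 neuron markers lower, 10 microglia markers higher, 4 oligodendrocyte lineage markers higher and 2 lower, 1 astrocyte marker higher and 1 lower, and 1 vascular marker higher, beside 10.9% of all genes. Without library 6 edgeR called 7 neuron markers lower, 11 microglia markers higher, 7 oligodendrocyte lineage markers higher and 2 lower, 2 astrocyte markers higher and 2 lower, and 1 vascular marker higher, beside 33.6% of all genes.

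Levels of the clustered protocadherins and their fold changes were loosely related across genes. The rank correlation of fold change with level per kilobase was 0.45 over the 54 tested members, which share exons, libraries and depth, and -0.19, 0.16 and 0.33 within the alpha, beta and gamma clusters.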
